A study of Homo sapiens with 3 samples.

Results

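The effect of a first siRNA against RAB11A on the transcript starts of EBC-1 cells was read from cap analysis of gene expression (CAGE), which counts tags from the capped 5′ ends of RNA. EBC-1 is a human cell line established from a squamous cell carcinoma of the lung. Cells of this 1 line had received, by electroporation, a negative control siRNA, RAB11A siRNA 1 or RAB11A siRNA 2, and each of these 3 groups is 1 library. The labels place electroporation 72 h after plating. The sources used here do not give the interval before RNA was taken, and name no genotype or agent beyond the siRNAs. The comparison took every gene whose mean over the 3 libraries reached 5 CPM (tags scaled to a common library total), and genes with identical values in every library counted once. This gave 10357 distinct genes from 10788 that passed, of 13479 listed. Because each side is 1 library, the values below are sizes with no replicate check and no test. The standard errors cover the counting of tags only.

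RAB11A is a small GTPase that marks the recycling endosome, the compartment through which internalised receptors, adhesion proteins and transferrin receptors return to the cell surface. In its GTP-bound form it recruits family-interacting proteins and myosin V motors, and it delivers vesicles toward the exocyst for fusion at the plasma membrane. Recycling endosomes also supply membrane to the growing autophagosome, to the midbody at the end of cell division and to the spindle poles.

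siRNA 1 is shown here because its strands fix both its target site and the short seed by which an siRNA can also meet other transcripts. The capitals mark bases 2 to 8 of each strand in RNA letters, and in the target the DNA bases that pair with the guide seed.
siRNA 1 sense strand: gCAUCCAGguugauggaaa
siRNA 1 guide strand: uUUCCAUCaaccuggaugc
RAB11A target site: gcatccaggttGATGGAAa
The given sequence was read as the sense strand, and the guide is its reverse complement. The target lies at chr15:66169784-66169802 on the plus strand of GRCh37, in coding exon 2 of 5 of RAB11A, downstream of the start that CAGE counts.

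RAB11A (ENSG00000103769, chr15:66018392-66184327, plus strand) stood at 135 CPM with control siRNA, 7.48 with siRNA 1 and 22.7 with siRNA 2. The siRNA 1 level was 5.53% of control, a log2 ratio of -4.01 with a counting standard error of 0.096. All log2 ratios here are of CPM + 1, siRNA 1 to control, and sets of 3 CPM values follow the order control, siRNA 1, siRNA 2. RAB11B, the close relative with overlapping functions, stood at 124, 113 and 97.4 CPM, a ratio of -0.12. The siRNA 2 values stand beside the others for reading only, because both siRNA libraries are set against the same control library.

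Tags summed over genes came to between 25137457 and 25204585 in the 3 libraries, above the total of about 24999950 tags per library. The sum takes in every listed gene, including those with identical values, so shared tags can count more than once. A single tag was worth 0.04 CPM, so a gene at 5 CPM rests on 125 tags. The median log2 ratio over all genes was -0.03, the middle 50% of genes lay between -0.19 and 0.14, and the 5th and 95th percentiles were -0.46 and 0.47. The median counting standard error was 0.071. Of 24 squamous lineage genes only PERP, S100A2, SFN and PITX1 gave a value, and no level was found here for KRT5, KRT14, TP63 or SOX2, so the squamous label could be checked on these 4 genes alone. Of 5 epithelial markers 4 gave a value and 3 were compared, the keratins KRT8, KRT18 and KRT19. EPCAM gave a value but lay under the 5 CPM minimum in every library. KRT8 and KRT18 have near-identical copies, so their levels are uncertain to that extent. None of 4 alveolar, 3 endothelial and 4 leukocyte markers gave a value, and the fibroblast markers COL1A1 and COL1A2 summed to 2.84, 3.32 and 2.60 CPM. MET, the receptor kinase known to be amplified in EBC-1, stood at 90, 91.8 and 93.1 CPM. An annotated start of MET also has near-identical copies, so its level is uncertain to the same extent.

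With siRNA 1, 36 genes (0.348% of those compared) were at least 2-fold higher than control and 54 (0.521%) at least 2-fold lower. At a limit of 1.5-fold, 290 genes (2.8%) were higher and 260 (2.51%) lower. Counting any size, 45.1% of genes were above control and 54.6% below. Protein-coding genes made up 25 of the 36 higher and 41 of the 54 lower genes. Per chromosome the median ratio lay between -0.09 on chromosome 20 and 0.02 on chromosome 13. The limit falls within a continuous range of values. S100A4, BIRC3 and a U6 entry lay just inside it, each at 1.00, and DKK1 (0.97), SDHAP2 (0.98) and CCDC28B (0.99) just outside. On the lower side IDNK (-1.02), ZFAS1 (-1.01) and WIPI1 (-1.01) were just inside, and FTL (-0.99), DDIT4 (-0.98) and C16orf74 (-0.98) just outside.

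**Figure D1:**
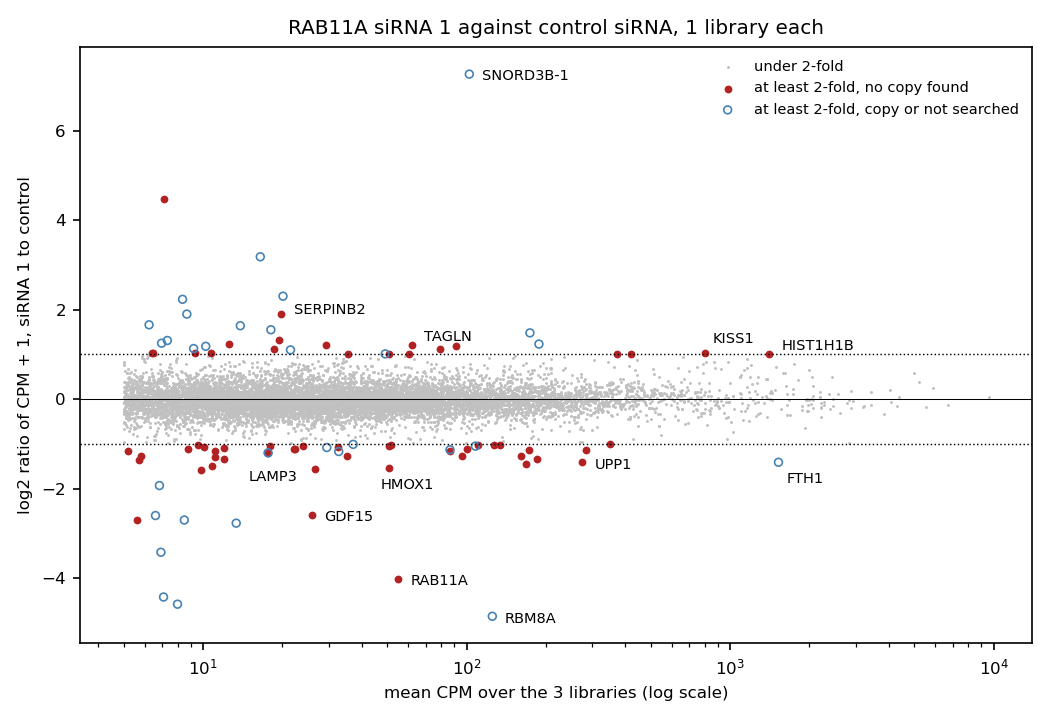
Each point is 1 gene, with the mean CPM over the 3 libraries on a log axis and the log2 ratio of CPM + 1, siRNA 1 to control, on the vertical axis. Dotted lines mark 2-fold. Filled points are 2-fold genes with no copy found and open circles those with a near-identical copy or not searched. RAB11A lies at -4.01 and most genes lie within 0.5 of 0.

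A search of annotated transcript starts found a near-identical copy elsewhere in the genome for 1548 of the genes compared, and 151 genes could not be searched. The 8658 genes with no copy found held 20 of the 36 higher and 39 of the 54 lower genes. A mean of 10 CPM or more was reached by 26 of the 36 higher genes and by 41 of the 54 lower genes. The genes described first are those with no copy found and a mean of at least 10 CPM.

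After RAB11A, GDF15 had the lowest ratio among the lower genes with no copy found and a mean of at least 10 CPM. GDF15 (chr19:18485541-18499986, plus strand), a cytokine secreted under cell stress, stood at 53.2, 8.04 and 16.6 CPM, a ratio of -2.58 with a counting standard error of 0.098. Its siRNA 1 level was thus 15.1% of control, and the siRNA 2 level lay between the others. Other secreted or cell surface proteins among these genes had smaller differences. VEGFA (chr6:43737921-43754224), the main angiogenic growth factor, stood at 143, 65.6 and 94 CPM (-1.11). NRP1, a coreceptor for VEGFA and semaphorins, stood at 15.4, 5.64 and 12.4 CPM (-1.30). AMIGO2, a leucine-rich adhesion protein, had 16.6, 5.96 and 13.5 CPM (-1.34). APOE, a lipid-carrying apolipoprotein, stood at 55.1, 26.2 and 70.8 CPM (-1.05), and for this gene the siRNA 2 library was above control. In a bulk library a lower level in each cell and fewer cells carrying the RNA cannot be told apart.

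Genes of oxygen, heme and redox handling were also among the lower 2-fold genes. HMOX1 (chr22:35776354-35790207, plus strand), the inducible enzyme that breaks down heme, stood at 87.3, 29.4 and 35.7 CPM (-1.54, counting standard error 0.060). EPAS1, the hypoxia-inducible factor HIF-2α, stood at 19.1, 6.16 and 7.28 CPM (-1.49). IDH1, the cytosolic isocitrate dehydrogenase that makes NADPH, stood at 278, 109.7 and 168 CPM (-1.33). For HMOX1 and EPAS1 the siRNA 2 value lay close to that of siRNA 1, while for IDH1 it lay nearer the middle. ALDH3B1, an aldehyde dehydrogenase, stood at 14.3, 6.24 and 9.72 CPM (-1.08).

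Genes of small metabolites and lipids were among the lower genes as well. UPP1 (chr7:48128225-48148333), the uridine phosphorylase that salvages uridine for its ribose, stood at 451, 169.6 and 201 CPM (-1.41, counting standard error 0.026). PLIN2, the coat protein of lipid droplets, stood at 144, 59 and 86.3 CPM (-1.27). NNMT, which methylates nicotinamide, had 27.6, 11.4 and 13.9 CPM (-1.21). For these 3 genes both siRNA libraries lay below control, with siRNA 1 the lower of them.

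Further lower genes with no copy found had varied functions. TRIB3, a pseudokinase induced in amino acid and endoplasmic reticulum (ER) stress, stood at 247, 101 and 136 CPM (-1.28). NUPR1, a small stress-induced nuclear protein, stood at 392, 177 and 283 CPM (-1.14). SESN2, a leucine sensor that restrains mTORC1, stood at 32.4, 14.4 and 19.8 CPM (-1.12). Each of these 3 is a gene of the ATF4 list described below. MKNK2, a kinase of the cap-binding factor eIF4E, stood at 269, 123 and 126 CPM (-1.13), and its siRNA values were nearly equal. RAB43, a Golgi GTPase, stood at 34.8, 15.6 and 16.4 CPM (-1.11). LAMP3, a lysosome-associated membrane glycoprotein, had 44.6, 14.5 and 20.8 CPM (-1.56). CD68, another heavily glycosylated lysosomal protein, had 45.2, 21.1 and 31.4 CPM (-1.07). BEX2, a small adaptor protein, was one of the more highly expressed genes here at 255, 93.4 and 156 CPM (-1.44). MAP1B, a microtubule-associated protein, stood at 119, 52.5 and 88.7 CPM (-1.16). SLFN5, a Schlafen family member, had 18.5, 8.16 and 9.20 CPM (-1.09). SHISA4, a small membrane protein, had 51.3, 20.6 and 34 CPM (-1.28). An entry named TRIM16 (ENSG00000251537) stood at 18.2, 7.64 and 7.44 CPM (-1.15), but TRIM16 and TRIM16L entries added together gave 27.00, 23.8 and 26.2 CPM, and that ratio describes the 1 entry. MLPH, melanophilin, which links RAB27A to myosin V, had 21.9, 10.1 and 22 CPM (-1.04), with siRNA 2 near control. PABPC1L, a poly(A)-binding protein relative, had 35.5, 16.8 and 19.7 CPM (-1.04), and RBCK1, the ubiquitin ligase HOIL-1, 156, 75.6 and 99.2 CPM (-1.03). The long noncoding RNA DLGAP1-AS2 had 165, 80.6 and 135 CPM (-1.03), and the choice of these 4 was made with their values known.

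SERPINB2 had the highest ratio among the higher genes with no copy found and a mean of at least 10 CPM. SERPINB2 (chr18:61538926-61571122, plus strand), an inhibitor of urokinase-type plasminogen activator, stood at 7.76, 31.8 and 19.9 CPM, a ratio of 1.90 with a counting standard error of 0.104. SERPINB7, a serpin of the same chromosome 18 cluster, stood at 17, 40.5 and 30.2 CPM (1.20). KISS1 (chr1:204159469-204165619), the precursor of the kisspeptins, stood at 518, 1052 and 833 CPM (1.02, counting standard error 0.015). In these 3 genes the siRNA 2 library lay between control and siRNA 1. CYR61 (chr1:86046444-86050272), a matricellular protein and YAP target, stood at 241, 487 and 388 CPM (1.01). SEMA7A, a membrane-anchored semaphorin that binds integrins, had 6.96, 17.7 and 13 CPM (1.23). C1QL1, a secreted C1q-like protein, had 6.68, 14.6 and 10.7 CPM (1.03). CD70, the ligand of the costimulatory receptor CD27, stood at 11, 24.9 and 19.7 CPM (1.11).

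The other higher genes with no copy found had varied functions. TAGLN, the actin-binding protein transgelin, stood at 37.6, 88 and 60.1 CPM (1.21). DCLK1, a microtubule-associated kinase, had 11, 28.8 and 18.6 CPM (1.31). KRTAP2-3, a keratin-associated protein gene, stood at 53.4, 123 and 96.4 CPM (1.19). CYP24A1, the hydroxylase that inactivates vitamin D hormone, stood at 53.6, 119 and 66.4 CPM (1.13), with siRNA 2 much nearer control. S100A4, which binds calcium and nonmuscle myosin, stood at 250.4, 502 and 508 CPM (1.00), and BIRC3, an inhibitor-of-apoptosis ubiquitin ligase, at 23.5, 48.1 and 34.8 CPM (1.00). HIST1H1B, a replication-dependent linker histone, stood at 907, 1821 and 1484 CPM (1.01, counting standard error 0.012). ESCO2, the acetyltransferase that locks cohesin during S phase, stood at 37.9, 77.4 and 66.1 CPM (1.01). The U6 entry at 31.8, 64.8 and 55.4 CPM lies inside ESCO2 on the same strand, so its tags and those of ESCO2 cannot be told apart here.

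Many of the most extreme ratios belonged to loci with copies or not searched, where tags can be placed on 1 copy or another. SNORD3B-1, which encodes the small nucleolar RNA U3, stood at 0.96, 299 and 7.64 CPM (7.26), and RBM8A, a core exon junction gene, at 353, 11.3 and 11.1 CPM (-4.85). The long noncoding gene AC013268.5 stood at 1.64, 23 and 24.9 CPM, and DDT, D-dopachrome tautomerase, at 0.16, 4.72 and 55.4 CPM. The long noncoding RNA LINC00152 had 32.9, 3.96 and 3.24 CPM and AC017002.2, whose values equal those of the related AC068491.1, 2.52, 9.28 and 42.5 CPM, with a sum over both of 35.4, 13.2 and 45.7 CPM. RP6-206I17.1 had 5.64, 19.7 and 16.2 CPM, and LINC00963, entered under a clone name, had 48.3, 20.8 and 29.1 CPM. Coding genes of this kind included DNAJB6, a heat shock cochaperone, at 70.5, 199 and 253 CPM (1.48). CAMTA2, a calmodulin-binding transcription activator, stood at 123, 55.6 and 80.9 CPM (-1.13). SLC2A3, the high-affinity glucose transporter GLUT3, had 38.7, 17.8 and 32 CPM (-1.08). WIPI1, a phosphoinositide effector of autophagosome formation, had 50.7, 24.7 and 35.9 CPM (-1.01). PSG5, a pregnancy-specific glycoprotein, had 12.4, 27.8 and 24.2 CPM (1.10). MAP3K7CL had 5.76, 14.4 and 10.6 CPM, AC007405.6 had 27.1, 11.2 and 14.6 CPM, and MTRNR2L8, a humanin-like entry, had 148, 70.6 and 106 CPM. Whether tag placement sets any of these values was not tested.

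Entries at or near 0 tags in a library were named after their values were seen. DHRSX, which shares all values with ZBED1 in the pseudoautosomal region, had 0 tags in control and 534 with siRNA 1, so it was at least 178-fold higher against a floor of 3 tags in the control library, and it had 0 tags with siRNA 2. A U1 entry had 137 tags in control and 0 with siRNA 1, at least 45.7-fold lower against the same floor, but 500 with siRNA 2. GTF2IRD2 had 530 tags against 1, and the ratio of siRNA 1 to control was 0.00189 with a 95% counting interval of 4.77e-05 to 0.0106. LINC00623 had 597 against 1 (0.00168, 4.23e-05 to 0.00937), and AP000525.9 had 263 against 2 (0.0076, 0.000916 to 0.0277). With siRNA 2 GTF2IRD2 had 0 tags, LINC00623 had 2 and AP000525.9 had 254, near its control value. The U1 entry, GTF2IRD2 and AP000525.9 have near-identical copies, and LINC00623 was not searched for them. DHRSX was counted among the genes with no copy found. As a pseudoautosomal gene it is nevertheless present on both X and Y, so that status does not cover its Y copy. Whether tag placement sets its values was not tested.

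Gene lists were then read as whole groups, by the number of members above and below control and by their median ratio, beside -0.03 for all genes. Of all genes 45.1% were above control and 54.6% below, and 2.8% and 2.51% passed the 1.5-fold limit in these directions. Each list's counts are read against these shares. The lists were chosen with earlier results of these data known, so the shares describe the lists and are no test of them. The lists furthest below were targets of the stress factors ATF4 and CHOP and of the antioxidant factor NRF2. Those furthest above were histones, mitosis and DNA replication genes. Of the list members named below, an annotated start with a near-identical copy was found for CALR, TARS2, NFE2L2, ABCC3, CTSC, POLA1, RRM2, AURKB, MKI67, CDC20, UBE2C, FANCD2, TPM1, PKP2, MYO5A, PGAM1, LDHA and ATIC, and their levels are uncertain to that extent.

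**Figure D2:**
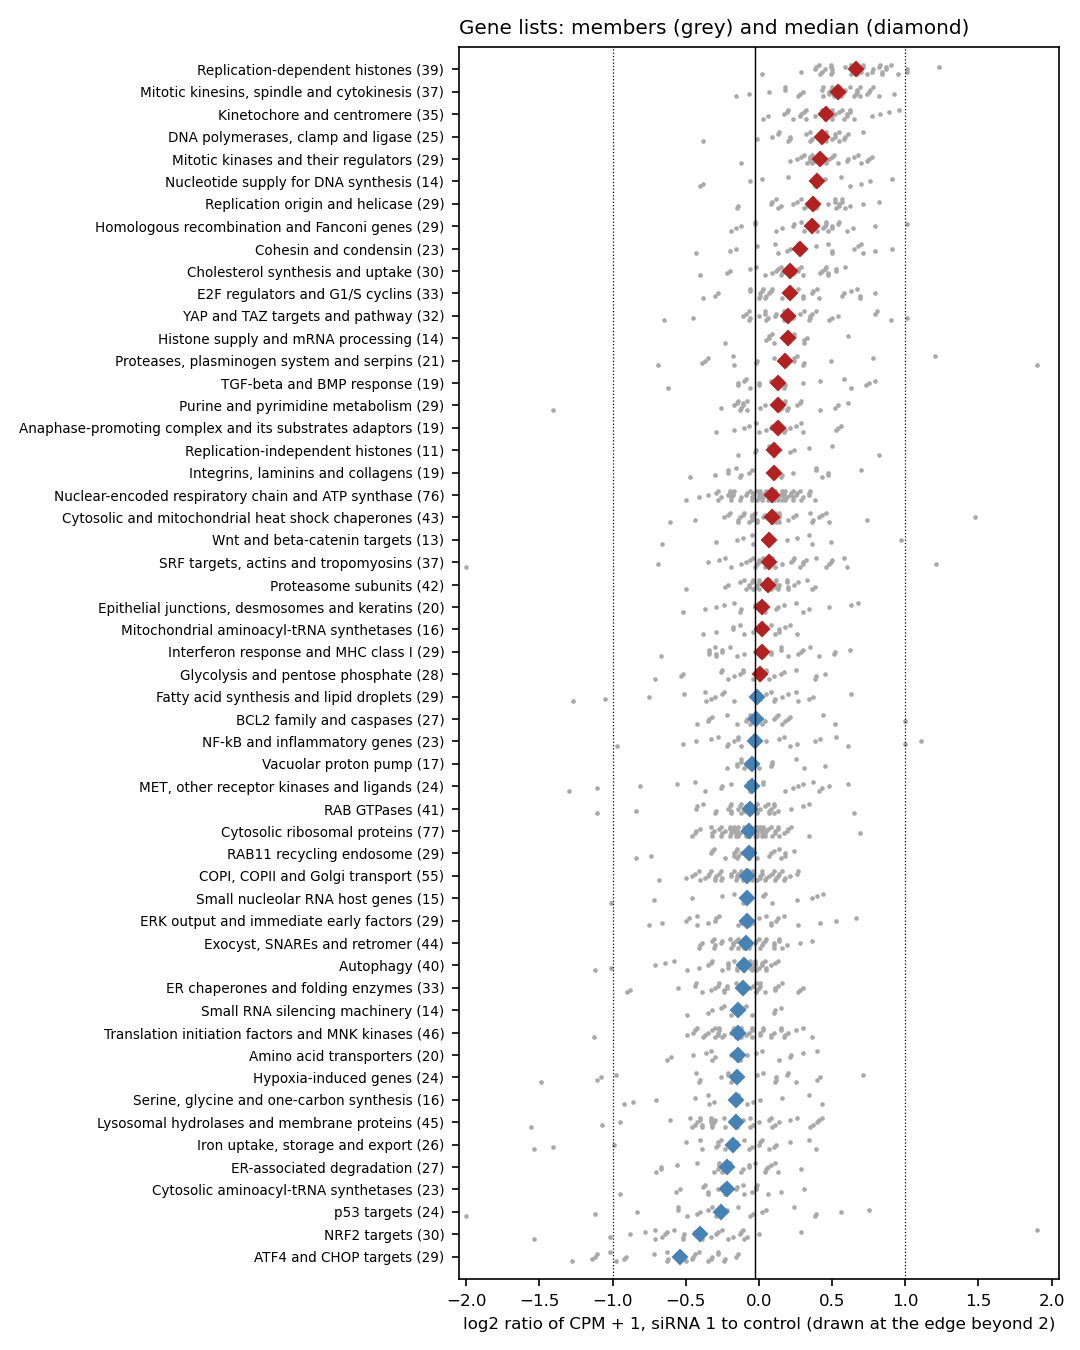
Every list with at least 10 genes compared is a line, with the number of genes in brackets, grey points for members and a diamond for the median log2 ratio, siRNA 1 to control. The solid line marks the median of all genes at -0.03 and dotted lines mark 2-fold. Medians run from -0.54 for ATF4 and CHOP targets to 0.66 for replication-dependent histones.

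ATF4 is the transcription factor made when phosphorylation of eIF2α slows translation, and CHOP (DDIT3) is a factor it induces. Of 33 listed targets and partners 29 were compared, and all 29 were below control, against 54.6% of all genes. At least 1.5-fold lower were 12, or 41.4% of the list against 2.51% of all genes, and none was 1.5-fold higher. The median was -0.54 with siRNA 1 and -0.34 with siRNA 2. DDIT3 stood at 196, 96 and 111 CPM (-1.02, counting standard error 0.036). ATF4 itself, which is regulated largely at translation, stood at 363, 273 and 303 CPM (-0.41). DDIT4, an inhibitor of mTORC1, had 145, 72.7 and 81.6 CPM (-0.98). ADM2, a peptide hormone of the calcitonin family, had 17.5, 8.88 and 10.2 CPM (-0.91). In each of these 4 genes the siRNA 1 library was the lowest of the 3 and control the highest.

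The amino acid side of the same program was also lower for many members. PCK2, the mitochondrial phosphoenolpyruvate carboxykinase, stood at 115, 60.1 and 66.6 CPM (-0.92). GOT1, the cytosolic aspartate transaminase, stood at 84.4, 46.2 and 49.4 CPM (-0.86). ASNS, asparagine synthetase, stood at 338, 249.6 and 267 CPM (-0.44). PHGDH, which opens the serine pathway, had 179, 141 and 111 CPM (-0.35), and here the siRNA 2 library was the lowest. ALDH1L2, a mitochondrial folate enzyme, had 48.8, 29.8 and 40 CPM (-0.70). Of 16 serine, glycine and one-carbon genes 12 were below control, with a median of -0.16, and SHMT1 was an exception at 21.9, 29.9 and 29.2 CPM (0.43).

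Cytosolic and mitochondrial aminoacyl-tRNA synthetases, the enzymes that load amino acids onto tRNA, had different medians. Of 23 cytosolic members 20 were below control with a median of -0.22, while of 16 mitochondrial ones 7 were below and 8 above, with a median of 0.02. WARS, the tryptophan enzyme, stood at 367, 189.8 and 252 CPM (-0.95, counting standard error 0.026). GARS, the glycine enzyme that also serves mitochondria, had 1026, 689 and 744 CPM (-0.57), and NARS, the asparagine enzyme, 161, 110.3 and 113 CPM (-0.54). EEF1E1, a scaffold of the synthetase complex, went the other way at 141, 175 and 183 CPM (0.31). TARS2 had 33.4, 25.3 and 25.4 CPM (-0.38) and SARS2 10.8, 13 and 11.2 CPM (0.26) among the mitochondrial enzymes, none of which was 1.5-fold from control. The difference between the lists was not tested.

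Of 20 amino acid transporters 14 were below control (median -0.14). SLC7A11, the cystine importer that feeds glutathione synthesis, stood at 134, 86 and 110.2 CPM (-0.63). SLC7A1, the cationic amino acid carrier, had 41.6, 27.2 and 33.3 CPM (-0.60), and SLC3A2, the shared heavy chain of several carriers, 173, 138 and 152 CPM (-0.33). SLC7A6, a partner of that heavy chain, was higher at 37.4, 49.7 and 44 CPM (0.40).

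Promoter sequence was read from RefSeq (GRCh38.p14), in windows from 250 bases before to 50 bases after each start, for 7961 of 9463 protein-coding genes (84.1%). A match to the C/EBP-ATF response element, TGATGNAA on either strand, was found in 6 of 25 matched ATF4 and CHOP list promoters (24%) and in 4 of 17 amino acid transporter promoters (23.5%), against 1.57% of all matched promoters. The windows below show it, in capitals, for genes of these lists described above, read on the gene's own strand with 5 bases on each side.
ASNS: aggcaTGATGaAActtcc
CHAC1: tgccgTTgCATCActcct
NARS: ctctcTGATGcAAcgccg
SLC7A1: actgcTGATGaAAcctgg
SLC3A2: actccTTaCATCAgctcc
The windows lie at chr7:97872464-97872481 for ASNS, chr15:40953257-40953274 for CHAC1, chr18:57621810-57621827 for NARS, chr13:29595669-29595686 for SLC7A1 and chr11:62881731-62881748 for SLC3A2. CHAC1, an enzyme that cleaves glutathione, stood at 63.4, 38 and 41.3 CPM (-0.72), and was named after its value was seen because its promoter holds the match. Within the ATF4 and CHOP list the median ratio was -0.38 for promoters with a match and -0.54 for those without. Among the amino acid transporters it was -0.32 with a match and -0.13 without, so the order of these medians was not the same in both lists.

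The ER folding machinery was lower for a few major members and near control for the rest. HSPA5 (chr9:127997132-128003661, minus strand), the Hsp70 chaperone BiP and sensor of ER load, stood at 1393, 744 and 781 CPM (-0.90, counting standard error 0.013). HYOU1, the large ER Hsp70 relative, had 259, 140.5 and 159 CPM (-0.88). ERP29, a disulfide isomerase relative, had 127, 86.3 and 102 CPM (-0.55), and HSP90B1, the ER Hsp90, 913, 741 and 731 CPM (-0.30). Of 33 ER chaperones and folding enzymes 22 were below control and 2 at least 1.5-fold lower (6.06% against 2.51% of all genes), with a median of -0.11. CALR, a lectin chaperone and 1 of 11 members above control, had 1073, 1299.8 and 1100.5 CPM (0.28) and was named after its value was seen for its promoter.

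Of 27 genes of ER-associated degradation and its sensors 20 were below control, with a median of -0.22. The sensors did not share a direction. XBP1, the factor whose mRNA is spliced by the sensor IRE1, stood at 353, 218 and 258 CPM (-0.70). ATF6, a membrane-bound sensor released by proteolysis, stood at 97.6, 60.8 and 73 CPM (-0.67). ERN1, the IRE1 sensor itself, had 12.3, 7.36 and 6.56 CPM (-0.67), with the lowest value in the siRNA 2 library. EIF2AK3, the sensor kinase PERK, had 7.72, 9.64 and 7.80 CPM (0.29), the highest ratio of the list. CREB3L2, a related membrane-bound factor, had 26.8, 17.8 and 23.8 CPM (-0.56), and DERL1, of the retrotranslocation channel, 60.8, 45.3 and 53.7 CPM (-0.42).

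The ER stress response element, CCAAT and CCACG with 9 bases of any kind between them, on either strand, was found in 6 of 30 matched chaperone promoters (20%) against 0.138% of all matched promoters, and in 1 of 24 degradation promoters, that of XBP1. The element begins with the letters CCAAT, which were also searched by themselves. It is shown in capitals at its fixed ends for 2 genes that were lower and 1 that was higher.
HSPA5: cttcaCCAATcggcggcctCCACGacggg
XBP1: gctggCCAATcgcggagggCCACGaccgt
CALR: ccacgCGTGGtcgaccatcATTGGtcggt
These windows lie at chr9:125241386-125241414 for HSPA5, chr22:28800598-28800626 for XBP1 and chr19:12938379-12938407 for CALR. The median ratio of chaperone promoters with the element was -0.26, beside -0.05 for those without. Of the 6 with it, HSPA5, HSP90B1, ERO1LB and CANX were below control and CALR and CRELD2 above.

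**Figure D3:**
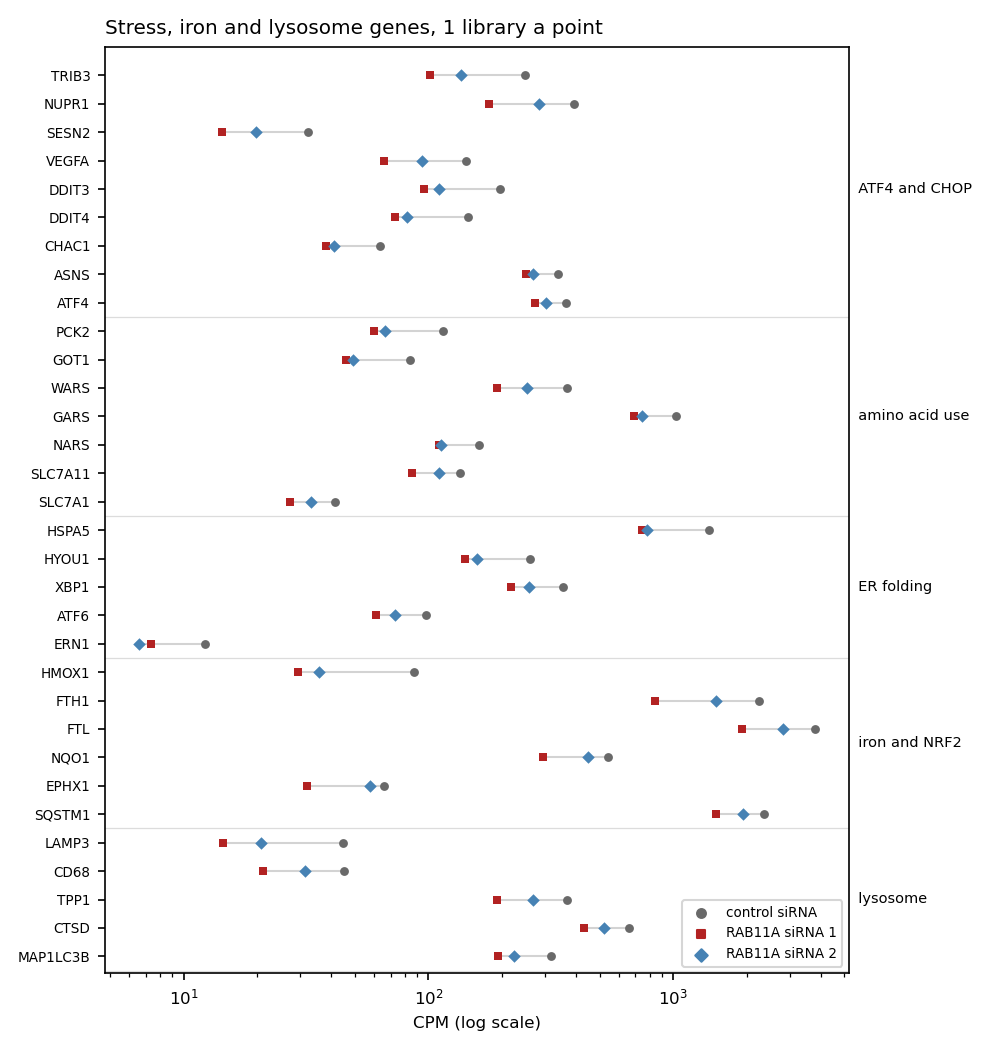
Each line is a gene with its CPM on a log axis in the control library (circle), the siRNA 1 library (square) and the siRNA 2 library (diamond), 1 library a point, grouped by function at the right. Only genes lower with siRNA 1 were drawn, so the shared direction follows from that choice. Control is highest for these genes, and siRNA 1 is lowest except for ERN1. Members that the text names as higher, such as CALR, EIF2AK3, EEF1E1, SLC7A6 and CTSC, were not drawn.

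NRF2 is the transcription factor that drives antioxidant, NADPH-making and iron-storing genes. Of 30 targets compared 27 were below control and 9 at least 1.5-fold lower (30%), against 54.6% and 2.51% of all genes, with a median of -0.40 with siRNA 1 and -0.14 with siRNA 2. NQO1, a quinone reductase, stood at 543, 294 and 448 CPM (-0.88, counting standard error 0.021). EPHX1, a microsomal epoxide hydrolase, stood at 65.6, 31.8 and 57.6 CPM (-1.02). For both genes siRNA 2 lay nearer to control than to siRNA 1. SRXN1, which repairs oxidised peroxiredoxins, had 183, 116 and 140.2 CPM (-0.66), and TKT, transketolase, 297, 207 and 234 CPM (-0.52). ME1, malic enzyme, had 29.3, 20.4 and 30 CPM (-0.51). ABCC3, an export pump, had 20.3, 12 and 13.2 CPM (-0.71). NFE2L2, the gene of NRF2 itself, stood at 76.4, 62.1 and 63.7 CPM (-0.29), and KEAP1, its inhibitor, at 47.9, 44 and 48.5 CPM (-0.12). TRIM16L, 1 of 3 members above control, is a near-relative of TRIM16 with the caveat given above.

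Ferritin, the cage that stores iron, was among the most abundant transcripts that were lower. FTL (chr19:49468566-49470136, plus strand), the light chain, stood at 3796, 1909 and 2804 CPM (-0.99, counting standard error 0.008). FTH1, the heavy chain, stood at 2248, 845 and 1488 CPM (-1.41), though it has many near-identical copies. Both chains together summed to 6043, 2753 and 4292 CPM. TFRC, the transferrin receptor that RAB11 vesicles return to the surface, had 83.9, 69.8 and 80.4 CPM (-0.26). SLC39A14, an iron and zinc importer, had 35.5, 24.9 and 27 CPM (-0.50), and SLC48A1, a heme transporter, 58.4, 44.2 and 55.9 CPM (-0.39). Of 26 iron genes 18 were below control, with a median of -0.18, so the larger differences lay in HMOX1 and both ferritin chains.

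Of 45 lysosomal hydrolases and membrane proteins 32 were below control, with a median of -0.16 and 4 members at least 1.5-fold lower (8.89% against 2.51% of all genes). TPP1, a tripeptidyl peptidase, stood at 368, 190.2 and 267 CPM (-0.95, counting standard error 0.026). CTSD, cathepsin D, had 656, 430.3 and 522 CPM (-0.61). NEU1, a sialidase, had 63.2, 45.5 and 53 CPM (-0.47), and CTSA, its protective protein, 289.6, 209.8 and 269 CPM (-0.46). CTSC, an activating peptidase, was higher at 179.6, 243 and 227 CPM (0.43). The vacuolar proton pump that acidifies these organelles stayed within 1.5-fold in all 17 subunits, with a median of -0.05, and ATP6V0E1 was its highest at 175, 239.9 and 233 CPM (0.45).

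Of 40 autophagy genes 31 were below control, with a median of -0.10. MAP1LC3B, the LC3 protein of autophagosome membranes, stood at 316, 192 and 224 CPM (-0.71). SQSTM1, the cargo receptor p62 and also an NRF2 target, stood at 2339.9, 1500.3 and 1919.7 CPM (-0.64). ULK1, the initiating kinase, had 15.6, 10.1 and 10.9 CPM (-0.58), and GABARAP, an LC3 relative, 484, 365 and 403 CPM (-0.41). The highest ratio in the list was 0.13, so no autophagy gene was far above control.

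Cell division genes were higher as groups. Replication-dependent histones, whose mRNAs lack a poly(A) tail and are made in S phase, were above control in all 39 of 39 genes compared, against 45.1% of all genes. At least 1.5-fold higher were 26 (66.7% against 2.8% of all genes), and the medians were 0.66 with siRNA 1 and 0.59 with siRNA 2. HIST1H2AB stood at 422, 819 and 743 CPM (0.95), HIST1H3C at 768, 1432 and 1287 CPM (0.90) and HIST1H2BB at 108, 256 and 200.2 CPM (1.23). HIST1H2BJ, which has no copy found, stood at 46.1, 83.5 and 83.6 CPM (0.84). Most histone genes have near-identical relatives or could not be searched, and neighbouring ones can share tags. Of 32 matched histone promoters 28 (87.5%) held CCAAT on either strand, against 37.7% of all matched promoters. Some of these promoter windows overlap, as for HIST1H2AM and HIST1H2BO, so the same CCAAT can be counted for both neighbours.

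Histone genes expressed throughout the cycle were mixed. H2AFX, the variant phosphorylated at DNA breaks, stood at 239.6, 425 and 368 CPM (0.82), and H2AFZ, the H2A.Z variant, at 1026, 1447 and 1343 CPM (0.50). H1F0, the linker histone of resting cells, was near control at 228, 239 and 162 CPM (0.07). Over 11 such genes the median was 0.10. SLBP, the protein that binds the histone mRNA stem loop, had 139.6, 165 and 154 CPM (0.24), and ASF1B, a histone chaperone of proliferating cells, 29.4, 45.2 and 37 CPM (0.61).

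DNA replication genes were higher in most members. Of 29 origin and helicase genes 27 were above control (median 0.37), and of 25 polymerase, clamp and ligase genes 23 (median 0.43). CDC45, of the active helicase, stood at 24.9, 41.3 and 33.9 CPM (0.71), and MCM2, of its ring, at 147, 217 and 160.0 CPM (0.57). PCNA, the sliding clamp, had 94.2, 138 and 125 CPM (0.55). TOP2A, the topoisomerase that untangles replicated DNA, had 115, 176 and 126 CPM (0.61), with siRNA 2 close to control. POLA1, the priming polymerase, had 19.2, 32.2 and 22 CPM (0.71). The letters GGCGGGAA, an E2F site, were in 5 of 26 origin promoters (19.2%) and 5 of 22 polymerase promoters (22.7%), against 5.59% of all matched promoters.

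Nucleotide supply showed the same direction in 11 of 14 genes (median 0.40). RRM2, the S-phase subunit of ribonucleotide reductase, stood at 81, 153 and 131 CPM (0.91), and TYMS, thymidylate synthase, at 176, 285 and 246 CPM (0.70). TK1, thymidine kinase, had 59.2, 91.5 and 69.2 CPM (0.62), and DCTPP1, a nucleotide-cleansing enzyme, 41.3, 70.5 and 49.8 CPM (0.76). RRM2B, the p53-regulated subunit used outside S phase, was lower at 18.9, 14.1 and 15.4 CPM (-0.40).

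Mitosis genes had among the highest list medians. All 35 of 35 kinetochore and centromere genes compared were above control (median 0.46, siRNA 2 0.19), as were 35 of 37 kinesin, spindle and cytokinesis genes (0.54, siRNA 2 0.10) and 28 of 29 mitotic kinases and regulators (0.42, siRNA 2 0.14). CENPW, a centromere histone-fold protein, stood at 104, 203 and 152 CPM (0.96, counting standard error 0.035). SPC24, of the microtubule-binding NDC80 complex, had 30.8, 58 and 49.8 CPM (0.89). KIF20A, a kinesin of the cytokinetic spindle, stood at 32.7, 62.6 and 33.9 CPM (0.92). ANLN, the cleavage-furrow protein anillin, had 89.5, 152 and 109 CPM (0.76). For KIF20A the siRNA 2 library stood next to control, while for CENPW and SPC24 it stood between.

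CDK1, the kinase that drives entry into mitosis, stood at 120.3, 206 and 164 CPM (0.77), and AURKB, the Aurora kinase of the chromosomal passenger complex, at 107, 179 and 129 CPM (0.74). MKI67, the gene of the Ki-67 antigen, had 59.4, 96.7 and 86.9 CPM (0.69). The letters TTTGAA, the cell cycle homology region, stood in 24 of 34 matched kinesin and spindle promoters (70.6%) and 13 of 29 kinetochore promoters (44.8%), against 9.01% of all matched promoters. Within these lists the medians with and without it were 0.57 and 0.39, and 0.50 and 0.47. Chromosome structure genes followed in part: 19 of 23 cohesin and condensin genes were above control (median 0.28). NCAPH, of condensin I, had 7.68, 15.3 and 9.48 CPM (0.91). SMC4, a condensin ATPase, had 53.4, 92.9 and 73.7 CPM (0.79), and PTTG1, the separase inhibitor securin, 163, 265 and 192 CPM (0.70).

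Genes that end mitosis by protein breakdown were closer to control. Of 19 anaphase-promoting complex genes none was 1.5-fold from control and the median was 0.13. Its activator CDC20 (133, 193 and 122 CPM, 0.54), its ubiquitin-conjugating enzyme UBE2C (129, 189.9 and 158 CPM, 0.56) and its inhibitor FBXO5 (44, 64 and 55.8 CPM, 0.53) were the highest, while the core subunits ANAPC16 (-0.29) and ANAPC5 (0.29) lay on opposite sides of 0.

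**Figure D4:**
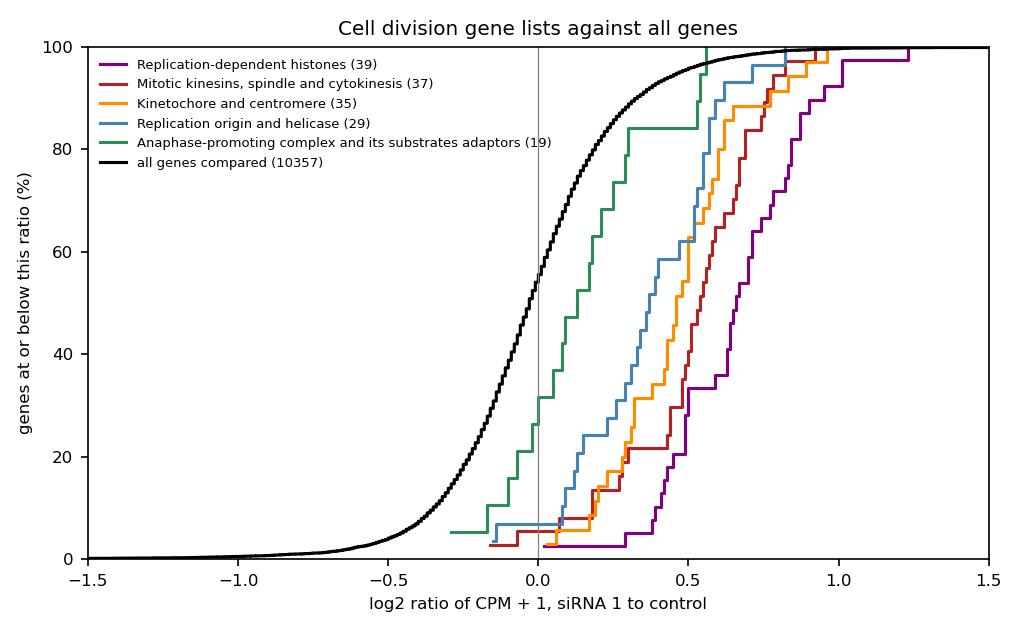
The share of genes at or below each log2 ratio, siRNA 1 to control, is drawn for 5 cell division lists and for all 10357 genes compared (black), with the number of genes in brackets. Histone, spindle, kinetochore and origin genes lie to the right of the black line, with medians of 0.66, 0.54, 0.46 and 0.37, and the anaphase-promoting complex lies nearest to it at 0.13.

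Regulators of the G1 to S transition and of homologous recombination were higher for many members. Of 33 E2F, cyclin and inhibitor genes 27 were above control (median 0.21). CDK2 had 71.5, 116 and 86.8 CPM (0.69) and CCNA2, cyclin A2, 84.5, 135 and 93 CPM (0.67). MYBL2, a factor of the late cell cycle genes, had 60.3, 90.8 and 56.7 CPM (0.58), with siRNA 2 below control. Of 29 recombination and Fanconi genes 24 were above control (median 0.36), among them FANCD2 at 57.6, 100.0 and 71.2 CPM (0.79) and BARD1, the partner of BRCA1, at 20.8, 31 and 24.7 CPM (0.55).

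p53 targets, many of which restrain the cycle or kill cells, were below control in 17 of 24 genes, with a median of -0.26. GDF15 and SESN2 are members, and SESN2 is also in the ATF4 and CHOP list. XPC, a sensor of DNA lesions, had 65.4, 44.4 and 39.4 CPM (-0.55), and TNFRSF10B, the death receptor DR5, 31.5, 22.1 and 25.6 CPM (-0.49). POLH, a lesion-bypass polymerase, was higher at 21, 36.2 and 28 CPM (0.75), as was PLK2, a polo-like kinase, at 167, 247 and 199 CPM (0.56). CDKN1A, the cyclin-dependent kinase inhibitor p21 and effector of the p53 arrest, stood at 48, 39.4 and 46 CPM (-0.28), and was likewise named after its value was seen. The apoptosis list was centred on -0.02, with BBC3, the BH3 protein PUMA, at 32.7, 24.1 and 24.9 CPM (-0.42).

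YAP and TAZ are coactivators that respond to cell spreading and tension, and of 32 targets and pathway genes 24 were above control (median 0.20). IGFBP3, a binding protein of insulin-like growth factors, had 44.7, 84.3 and 60.7 CPM (0.90). ANKRD1, a classical YAP target, had 23.8, 42.4 and 35 CPM (0.81), and AMOTL2, a scaffold that feeds back on YAP, 61.9, 88.2 and 76.1 CPM (0.50). VGLL4, a competitor of YAP for the TEAD factors, was lower at 142, 90.2 and 95.4 CPM (-0.65). GGAATG, the TEAD site, stood in 6 of 26 matched promoters of the list (23.1%) against 10.4% of all matched promoters.

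Of 37 actin, tropomyosin and SRF target genes 25 were above control (67.6% against 45.1% of all genes), with a median of 0.07. TPM1, a tropomyosin, had 81, 123 and 86.2 CPM (0.60), LIMA1, an actin-bundling protein, 132, 187 and 129 CPM (0.50), and MYL6, a myosin light chain, 1102, 1519 and 1518 CPM (0.46). In TPM1 and LIMA1 the siRNA 2 library was near control, whereas in MYL6 it was near siRNA 1. ACTA1, skeletal muscle actin, was the lowest of the list at 13.2, 1.20 and 2.44 CPM (-2.69), on few tags, and was named after its value was seen.

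S100 calcium-binding proteins were above control in 7 of 9. S100A10, the annexin A2 partner that binds plasminogen, stood at 585, 1003 and 774 CPM (0.78), and S100A13 at 160.3, 239.7 and 227 CPM (0.58). S100A6, a cytosolic member with a high level here, was near control at 8968, 9279 and 10523 CPM (0.05). PLAT, tissue plasminogen activator, had 14.8, 26.2 and 24.6 CPM (0.78), and PLAUR, the urokinase receptor, 61.2, 76.2 and 85.8 CPM (0.31).

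Junction, keratin and matrix genes were centred near control. KRT19, a keratin of simple epithelia, had 109, 175 and 152 CPM (0.68), PKP2, a desmosomal plakophilin, 13.2, 21 and 18.3 CPM (0.63), and JUP, plakoglobin, 23, 32.6 and 23.9 CPM (0.48). CTNNB1, β-catenin, was lower at 146, 101 and 142 CPM (-0.52), with siRNA 2 near control, and VIM, vimentin, at 894, 692 and 735 CPM (-0.37). COL4A2, a basement membrane collagen, had 63.2, 103 and 59.8 CPM (0.70) and its partner COL4A1 20.3, 28.4 and 15.3 CPM (0.47), both with siRNA 2 below control. ITGA6, the laminin-binding integrin, had 128, 168 and 144 CPM (0.39).

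Of 29 other recycling endosome genes 21 were below control, with a median of -0.07, beside -0.03 for all genes. At least 1.5-fold lower were 2 (6.9% against 2.51% of all genes). These were RAB4B, a GTPase of fast recycling, at 8.52, 4.32 and 5.48 CPM (-0.84), and RAB3IL1, an exchange factor of RAB3 and RAB8, at 11.1, 6.24 and 9.36 CPM (-0.74). RAB4B shares all its values with the readthrough entry RAB4B-EGLN2, and both genes were chosen with their values known. MICALL1, a tubular endosome adaptor, had 51.7, 41 and 44.3 CPM (-0.33), MYO5A, a myosin V motor, 29.4, 23.4 and 31.5 CPM (-0.32), and RAB11FIP2, a RAB11 effector, 31.1, 25 and 28.2 CPM (-0.31). EHD4, a membrane-shaping ATPase, was higher at 51.8, 61.4 and 62.3 CPM (0.24). Among 41 other RAB GTPases only RAB43 was at least 2-fold from control. RAB3B, of regulated secretion, had 15.6, 25.2 and 20.8 CPM (0.65), and RAB22A, of early endosomes, 93.5, 69.6 and 101 CPM (-0.42).

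None of 44 exocyst, SNARE and retromer genes was 1.5-fold from control (median -0.09). STX16, a SNARE of the trans-Golgi network, had 57.4, 43 and 48.6 CPM (-0.41), and VPS29, of retromer, was the highest at 187, 240.2 and 202 CPM (0.36). In transport between ER and Golgi 36 of 55 genes were below control (median -0.08). COPG1, a COPI coat subunit, had 95.8, 67.7 and 63.2 CPM (-0.50), SEC24D, a COPII cargo adaptor, 36.1, 26 and 26 CPM (-0.46), and SRPR, the signal recognition particle receptor, 214, 157 and 170.4 CPM (-0.44). For COPG1 the siRNA 2 library was the lowest.

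Growth factor signalling was centred near control. EGFR stood at 74.5, 104 and 87.5 CPM (0.48) and AXL, another receptor kinase, at 458, 537 and 547 CPM (0.23). FGF2, a heparin-binding growth factor, was lower at 55.5, 37.3 and 35.6 CPM (-0.56). Feedback genes of the ERK pathway went both ways, with SPRY4 at 28.7, 16.6 and 17.9 CPM (-0.75), DUSP6 at 31.7, 22.4 and 21.2 CPM (-0.48) and SPRY2 at 30.9, 45.2 and 43.4 CPM (0.53). IER3, an immediate early gene, had 96.4, 60.7 and 65.6 CPM (-0.66), and KLF5, an epithelial factor, 15.6, 25.2 and 18.3 CPM (0.66).

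Inflammatory and interferon genes had medians of -0.03 and 0.02. CXCL5, a neutrophil chemokine, stood at 88.5, 44.6 and 54.2 CPM (-0.97), and CXCL2, a relative, at 25.2, 17.3 and 15.1 CPM (-0.52). NFKB2, the precursor of the noncanonical p52 subunit, had 31, 45.2 and 32 CPM (0.53), with siRNA 2 near control, and IL18, an interleukin of the IL-1 family, 26.3, 40.7 and 28.4 CPM (0.61). IFI6, an interferon-induced mitochondrial protein, had 17.3, 27.2 and 23.2 CPM (0.62), and STAT2, of the interferon signal, 39.6, 31.1 and 34.2 CPM (-0.34).

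Among TGF-β and BMP genes, the ligand TGFB2 stood at 13.9, 24.8 and 14.3 CPM (0.79) and the BMP target ID3 at 19.2, 33.1 and 12.6 CPM (0.75), where siRNA 2 lay below control. SKIL, a repressor of SMADs, was lower at 33.4, 21.3 and 31.6 CPM (-0.62). In the Wnt list DKK1, a secreted inhibitor, had 37.4, 74.4 and 63.4 CPM and CD44, an adhesion receptor, 78.7, 111 and 107 CPM (0.49). Among hypoxia-induced genes the directions were opposed: ADM, adrenomedullin, was higher at 80.3, 132 and 77.5 CPM (0.71) and EGLN3, a prolyl hydroxylase, at 85.5, 115 and 104 CPM (0.42), while EPAS1, VEGFA and DDIT4 were lower. HIF1A, the other main hypoxia factor, stood at 179.7, 195 and 189 CPM (0.12).

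Cholesterol synthesis genes were above control in 25 of 30 (medians 0.21 with siRNA 1 and 0.24 with siRNA 2). HMGCS1, a synthase early in the pathway, stood at 36.7, 55.9 and 45.4 CPM (0.59). SQLE, the squalene epoxidase, had 104, 143 and 143 CPM (0.45). Only 1 of the list was at least 1.5-fold higher. Of 29 fatty acid and lipid droplet genes 13 were above control and 16 below. SREBF1, their transcription factor, was lower at 129.6, 76.9 and 93 CPM (-0.75), SCD, the stearoyl desaturase, had 315, 245 and 319 CPM (-0.36), and FADS2, a polyunsaturated fatty acid desaturase, was higher at 129, 199 and 186 CPM (0.63).

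Glycolysis and pentose phosphate genes had a median of 0.01. SLC16A3, the lactate exporter, had 198, 137 and 169 CPM (-0.53), PGAM1 167, 229 and 190.0 CPM (0.45) and LDHA, lactate dehydrogenase A, 209, 271 and 211 CPM (0.38). In purine and pyrimidine metabolism UPP1 stood apart from the rest, since the next lowest member, ATIC, had 149, 124 and 118 CPM (-0.26). NT5E, the surface nucleotidase CD73, had 148, 215 and 197 CPM (0.54), and HPRT1, of purine salvage, 74.1, 107 and 98.5 CPM (0.52).

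Housekeeping complexes were near control. None of 76 nuclear-encoded respiratory chain genes was 1.5-fold from control (median 0.09), nor any of 42 proteasome subunits (0.06). Ribosomal protein genes had a median of -0.07 over 77, and RPS6 was the highest at 636, 1024 and 972 CPM (0.69). Among translation factors EIF4EBP1, the cap-binding repressor and an ATF4 target, had 486, 355 and 388 CPM (-0.45), and EIF1, of start codon selection, 1392, 993 and 1164 CPM (-0.49). Among chaperones outside the ER, HSPA9, the mitochondrial Hsp70, was lower at 576, 378 and 389.9 CPM (-0.61) and DNAJB4, a cochaperone, higher at 27.2, 46 and 41.4 CPM (0.74).

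Long noncoding genes were spread more widely than coding genes on both sides, and more so on the lower side. Of 311 long noncoding genes 24 (7.72%) were at least 1.5-fold lower and 14 (4.5%) higher, against 2.3% and 2.5% of coding genes. Their median was -0.11 beside -0.03 for coding genes, and with siRNA 2 it was -0.04 beside -0.05. The difference was not tested. Of 15 hosts of small nucleolar RNAs 7 were above control (46.7% against 45.1% of all genes) and 8 below. Their median was -0.08 and their highest ratio 0.44. Lower ones included ZFAS1 at 482, 239 and 326 CPM (-1.01) and EPB41L4A-AS1 at 62.8, 37.7 and 47.2 CPM (-0.72). SNHG5 was also lower at 1291, 937 and 1126 CPM (-0.46), and SNHG8 was higher at 293, 351 and 335 CPM (0.26). Genes of small RNA silencing, through which an siRNA acts, were below control in 11 of 14 and within 1.5-fold in all (median -0.14). TNRC6B, a scaffold of silencing complexes, had 41.7, 29.5 and 33.7 CPM (-0.49), and DICER1 42.8, 33.4 and 41.9 CPM (-0.35).

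The guide strand of an siRNA can act like a microRNA on 3′ UTRs that pair with its seed. Sites for the siRNA 1 guide seed, the letters GATGGAA, were sought in the 3′ UTRs of 9434 compared genes, leaving out RAB11A. The 1389 genes with at least 1 site had a median ratio of -0.07, and 63.3% were below control. The 582 whose site was followed by A, the pairing context favoured by microRNAs, had a median of -0.10, and 66.7% were below. The 8044 genes without a site had -0.02, and 53.3% were below.

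Genes with sites have longer UTRs, with a median of 3241 bases against 1135, so the medians were also read within ranges of UTR length. Between 500 and 1500 bases they were -0.10 with a site, -0.13 with a site followed by A and -0.02 without, and from 1500 bases up -0.07, -0.10 and -0.02. In shorter UTRs, with 50 genes that hold a site, they were -0.04, -0.04 and -0.02. In the siRNA 2 library the same genes had ratios to control of -0.05 with a site, -0.04 with a site followed by A and -0.05 without. Sites for the siRNA 2 guide seed, the letters TTGCAGA, gave siRNA 1 medians of -0.03 with and -0.03 without, and sites for the siRNA 1 passenger seed, CTGGATG, gave -0.06 and -0.03. These differences of up to about 0.1 in the median are small beside the spread of single genes. At least 1.5-fold lower with siRNA 1 were 3.6% of genes with a siRNA 1 guide site and 2.04% of those without. Between 500 and 1500 bases these shares were 5.31% and 1.98%, and from 1500 bases up 3.11% and 1.95%. For siRNA 2 guide sites they were 2.56% and 2.21%, and for siRNA 1 passenger sites 2.5% and 2.23%. What sets these shares was not tested.

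**Figure D5:**
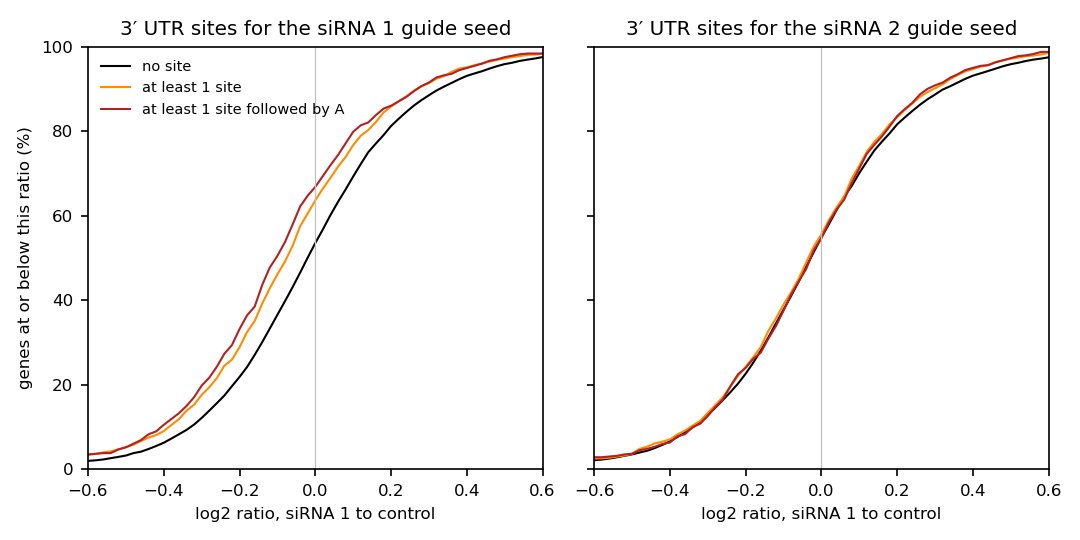
The share of genes at or below each log2 ratio, siRNA 1 to control, is drawn for genes with no site, with at least 1 site and with a site followed by A, for the siRNA 1 guide seed (left) and the siRNA 2 guide seed (right). On the left the lines with sites lie to the left of the line without (medians -0.07, -0.10 and -0.02), and on the right the lines nearly coincide.

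Few of the genes at least 2-fold lower held a site for the siRNA 1 guide seed. Of the 54 genes at least 2-fold lower 40 had a 3′ UTR in this set, and 4 of them (10%) held the seed site, against 14.7% of all genes searched. These sites are shown with 11 bases before and 1 after, on the transcript's strand, with the seed match in capitals.
GDF15: ggggctggtctGATGGAAc
MAP1B: aattaacacatGATGGAAa
SLFN5: acacaaaagtaGATGGAAg
SLC2A3, first site: atatatgccatGATGGAAa
SLC2A3, other site: tctgtccttcaGATGGAAa
In GRCh37 the seed matches lie at chr19:18499928-18499934 for GDF15, chr5:71503435-71503441 for MAP1B, chr17:33595173-33595179 for SLFN5, and chr12:8073425-8073431 and chr12:8073200-8073206 for SLC2A3. GDF15 had ratios of -2.58 with siRNA 1 and -1.63 with siRNA 2, MAP1B -1.16 and -0.42, SLFN5 -1.09 and -0.94, and SLC2A3 -1.08 and -0.27. Whether any of these genes was lowered through its site was not tested.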

How the data were processed

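CAGE tags of 3 EBC-1 libraries (control siRNA, RAB11A siRNA 1, RAB11A siRNA 2) were used as the CPM per gene and strand that the authors deposited. The submitters' processing notes name BWA, HISAT2 and the build hg19. Their versions, the counting tool, the annotation and how multiply matching tags were placed remain unstated in the sources used here. In each library 100.0% of deposited CPM values were whole multiples of 0.04, within 0.005 CPM, which gave about 24999950 tags per library. The sources used here do not say how the totals came to be equal. Tags were not stated to be separate molecules, so errors cover counting only.

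The log2 ratio of CPM + 1 was computed for genes whose mean reached 5 CPM, and genes with equal values in all libraries (837 genes in 406 sets) counted once. With 1 library per group no test of the conditions exists. Counting standard errors came from Poisson tag variances, and ratios on 1 to 3 tags have exact 95% intervals. A count of 0 is read against a limit of 3 tags, or 0.12 CPM. Members, 58 gene lists and the naming rule were chosen with earlier results of these data known. The rule named RAB11A and RAB11B, up to 25 genes per direction with the largest ratios among 2-fold genes that averaged 10 CPM or more and had no copy, and up to 10 per direction with a copy or not searched. It added up to 8 members per list that averaged 10 CPM or more, sensors, receptors and rate-limiting members, and 3 genes on each side of each 2-fold limit. Some genes that the rule names are not reported here.

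In GENCODE v44 lifted to GRCh37, 13163 of 13479 identifiers (97.7%) were found. A copy meant that the first 50 bases of an annotated start matched elsewhere with at most 2 mismatches (minimap2 2.31-r1302). RefSeq promoters (GRCh38.p14) matched 8145 of 10357 genes (78.6%). Shares of promoter motifs are therefore given over protein-coding genes, and only for lists with at least 80% matched. Not every such share is described above. The CLEAR element was in 1 of 35 matched autophagy promoters. The antioxidant response element was in 1 of 21 iron promoters, and the E2F site in 1 of 12 nucleotide supply promoters. These shares lay nearer to those of all matched promoters than the shares described above. Tags were also simulated for 10357 genes with Poisson counting noise only. There the 2-fold count found 0 of 50 genes changed 1.5-fold and 47 of 50 changed 2.5-fold. It found 50 of 50 changed 4-fold, 50 of 50 changed 8-fold and 0 of 10157 unchanged ones. The simulation holds no variation between libraries and no misplaced tags, so it cannot show how many real 2-fold calls arise from these. Python 3.11.15 with pysam 0.24.0, scipy 1.17.1, numpy 2.4.6, matplotlib 3.10.9 and pandas 2.3.3, samtools 1.23.1 and, for TMM scaling, edgeR 4.0.16 in R 4.3.3 were used. Alternatives were other pseudocounts, minimum levels and scalings, every gene counted, genes with copies left out, and an exact binomial test of the tags.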

Additional observations from a re-analysis of the deposited data

How the results depend on the processing

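Each group is 1 library, so no library could be left out. No paired analysis was possible because each group holds 1 library and the ratios come from no test. The counts of 36 higher and 54 lower genes became 42 and 57 with a pseudocount of 0.5 CPM, 39 and 48 under TMM or median-ratio scaling, and 40 and 56 with every gene counted. They moved by over 1.5 times under the following settings. A pseudocount of 5 CPM gave 18 higher and 29 lower, and a minimum mean of 20 CPM gave 17 and 31, where fewer genes enter. The lower count was 85 at a minimum mean of 1 CPM (44 higher) and 93 with no filter (48 higher). Without genes that had copies or were not searched, 20 higher and 39 lower genes were left, by construction a subset. An exact binomial test of the tags at an adjusted p of 0.05 called 2421 genes higher and 3019 lower, which compares these 2 libraries and not the conditions.

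The other scalings moved the median of all genes from -0.03 to -0.00, under 0.1, so list medians within about 0.05 of 0 carry no direction. Of 504 list medians under these settings, for 56 lists, 498 stayed within a margin of the main value and 6 moved. That margin came from the median counting standard error of the single genes of a list. It is wider than the counting error of a median over many genes, so staying within it is a weak check. Reversal was looked for only in lists with medians further from 0, and 0 of these reversed. Medians near 0 could change side, as for mitochondrial aminoacyl-tRNA synthetases (0.02, range -0.15 to 0.05) and inflammatory genes (-0.03, range -0.08 to 0.05). The TGF-β and BMP median of 0.13 was -0.00 at its lowest. Of 503 values for 60 named genes 471 stayed, 32 moved and 0 reversed. The ratio of a gene on few tags depends on the pseudocount. For a single gene near 5 CPM in both libraries, 1 counting standard error is already above 0.1. Differences well above 0.1 in such a gene can therefore still lie within counting error.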
